A study of Homo sapiens with 4 samples.

Results

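The germ-cell genes described here were 10 genes fixed by name: DAZL, DDX4, MAEL, SYCP3, HORMAD1, TEX101, PIWIL1, PIWIL2, PIWIL4 and TDRD1. They were taken from 62218 genes in the deposited tables, and 60 of the 242542 transcripts that could be assigned to a gene belonged to them. The value of a gene was the count of its transcript with the largest mean count. The set was compiled as genes that are active in germ cells and known to be kept silent in other cells by DNA methylation. No methylation was measured in these libraries, so the values below are RNA levels.

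The libraries compared wild-type H1 human embryonic stem cells (hESCs), an established line, in 2 states of pluripotency. Naïve hESCs were grown in the FINE condition, a medium with kinase inhibitors under low oxygen, and had been derived from the primed H1 cells. Primed hESCs were grown in mTeSR on Matrigel, the standard culture for this line. The sample labels also give a lower confluency for the naïve than for the primed cultures. Confluency thus differed along with state, and its part in the differences below was not tested. Each state had 2 long-read Nanopore cDNA libraries, numbered 1 and 2, and all 4 came from this single line. The labels do not say whether the libraries of a state came from separate cultures, so p-values measure the spread between these libraries, which may be technical.

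Germ-cell genes serve the development of sperm and eggs. Many of them carry promoters rich in CpG dinucleotides, and methylation of these sites, together with a repressor complex built around MGA, MAX, E2F6 and PCGF6, keeps them off in somatic tissues. The set spans RNA-binding regulators of early germ cells (DAZL, DDX4), structural proteins of meiotic chromosomes (SYCP3, HORMAD1), a surface protein of germ cells (TEX101), and the piRNA pathway, in which PIWI proteins loaded with small RNAs silence transposons (PIWIL1, PIWIL2, PIWIL4, TDRD1, MAEL).

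Promoter sequences from RefSeq (GRCh38.p14) are shown for the 4 members with the largest differences between the states. CpG sites are marked because the set was compiled as genes silenced by DNA methylation. Each run holds the 250 bases before a start site, read 5′ to 3′ on the gene's strand, with every CpG in capitals. The DAZL window is chr3:16605424-16605673 (minus strand), before the start of DAZL-202. It lies inside the span of DAZL-203, the transcript counted for the gene. The SYCP3 window is chr12:101739463-101739712 (minus strand), before the start of SYCP3-202. The TDRD1 window is chr10:114179037-114179286 (plus strand), which ends inside the first bases of TDRD1-201 because the RefSeq start lies 17 bases downstream of it. The MAEL window is chr1:166989030-166989279 (plus strand), before the start of MAEL-202. Most of it lies inside MAEL-201, the transcript counted for the gene, which starts at 166989089.
DAZL: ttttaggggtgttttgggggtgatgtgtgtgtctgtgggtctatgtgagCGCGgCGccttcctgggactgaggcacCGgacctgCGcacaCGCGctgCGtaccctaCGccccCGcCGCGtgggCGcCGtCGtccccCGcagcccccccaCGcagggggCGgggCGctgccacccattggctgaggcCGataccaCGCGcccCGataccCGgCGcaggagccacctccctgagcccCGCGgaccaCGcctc
SYCP3: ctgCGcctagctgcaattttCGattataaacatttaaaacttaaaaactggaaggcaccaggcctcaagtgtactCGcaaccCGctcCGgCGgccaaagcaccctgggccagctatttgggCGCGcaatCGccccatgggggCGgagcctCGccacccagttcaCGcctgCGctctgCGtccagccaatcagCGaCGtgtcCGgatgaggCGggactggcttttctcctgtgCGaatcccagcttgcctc
TDRD1: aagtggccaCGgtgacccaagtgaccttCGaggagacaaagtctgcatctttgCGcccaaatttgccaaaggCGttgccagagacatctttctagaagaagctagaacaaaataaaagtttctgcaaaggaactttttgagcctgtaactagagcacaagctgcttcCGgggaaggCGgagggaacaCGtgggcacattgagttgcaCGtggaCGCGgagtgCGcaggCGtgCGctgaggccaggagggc
MAEL: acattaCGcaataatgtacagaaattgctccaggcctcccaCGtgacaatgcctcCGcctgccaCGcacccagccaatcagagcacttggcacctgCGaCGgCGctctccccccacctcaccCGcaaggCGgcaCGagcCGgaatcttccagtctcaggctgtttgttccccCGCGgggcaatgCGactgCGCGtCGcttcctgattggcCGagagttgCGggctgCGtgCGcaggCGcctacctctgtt

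These windows held 28 CpG sites in DAZL, 19 in SYCP3, 13 in TDRD1 and 22 in MAEL. Extended 50 bases past the start, they held 33, 24, 17 and 27, beside a median of 14 CpG sites over all 35116 RefSeq promoters in windows of that size. Of the members, 7 had RefSeq promoters, with 11 entries in all. In the extended windows PIWIL1 held 30 CpG sites and the start of TEX101-201 held 19. The other entries of DAZL, TDRD1 and MAEL held 29, 21 and 60. An internal DDX4 start held 1, and a TEX101 start far upstream of the counted transcripts held 3. The motif CACGTG, which reads the same on both strands and is bound by dimers of MAX, was in 4 of the 11 entries, against 7.26% of all promoters. These were 2 overlapping TDRD1 windows with 2 matches each, 1 MAEL window and 1 DAZL window downstream of the one printed. The motif TCCCGC, searched on both strands and typical of E2F binding sites, was in 5 of the 11 entries, against 26.9% of all promoters. A match describes the letters of the window and was not linked to any level below.

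Total counts per library were between 129276054 and 161548901, and the single transcripts taken for each gene summed to between 23542380 and 30978794. An alignment was counted for every transcript whose span it overlapped, introns included and strand ignored, so these totals exceed the number of reads. Levels are given as CPM, counts per 1000000 of the gene-level sum after scaling by the trimmed mean of M values (TMM). All 8 naïve markers rose in naïve hESCs (7 with library size in place of TMM, where KLF17 had −0.23, adjusted p = 0.114) and all 8 primed markers rose in primed hESCs, as labelled. Markers of trophoblast summed to 1664 and 1996 CPM in the naïve libraries against 6.35 and 6.97 CPM in the primed libraries. Most of the naïve sum was the single gene CGA (naïve mean 1705 CPM), and the next largest marker was GATA3 (naïve mean 43.7 CPM). Of these markers, 7 of 8 were higher in naïve hESCs, and VGLL1 alone was at 0 in both primed libraries. Markers of amnion summed to 29.8 and 28.3 CPM in the naïve libraries against 6.79 and 5.57 CPM in the primed libraries. All 6 were higher in naïve hESCs (5 with library size, where GABRP had 0.11, adjusted p = 0.665). Among 8 genes listed as markers of late germ cells, TNP1, TNP2, PRM2 and ACR had at most 3 counts in every library. PRM1 had 0 and 0 naïve and 7 and 3 primed counts. GDF9 was higher in naïve hESCs, and ZP3 and UCHL1 were higher in primed hESCs. The list summed to between 187 and 256 CPM in the 4 libraries. Most of this was GDF9 in naïve hESCs (mean 198 CPM) and UCHL1 in primed hESCs (mean 184 CPM). The counted transcripts of GDF9 and ZP3 overlap other genes. Of 8 primordial germ cell markers 7 were tested, and 71.4% of these were called, beside 70.0% of all tested genes. The 2 higher in naïve hESCs were PRDM1 and TFAP2C, and the 3 higher in primed hESCs were KIT, ITGA6 and CD38. The part of trophoblast, amnion or germ cells in the differences below was not tested.

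The germ-cell genes did not move together. Of the 10, 8 had at least 10 counts in at least 2 libraries and were tested, and 7 of these passed an adjusted p of 0.05 (edgeR quasi-likelihood test, Benjamini-Hochberg over all 27632 genes tested). This was 87.5% of the tested members, beside 70.0% of all tested genes. SYCP3, TDRD1, MAEL and HORMAD1 were higher in naïve hESCs, 50.0% of the tested members beside 32.6% of all genes. DAZL, PIWIL4 and PIWIL2 were higher in primed hESCs, 37.5% beside 37.4% of all genes. DDX4 did not pass, and TEX101 and PIWIL1 were below the count minimum. In bulk RNA, fewer cells that carry a transcript and less of it per cell cannot be told apart.

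Most of the set was scarce. All 10 members had at least 1 count in every library, but only SYCP3 and DAZL reached 100 counts in 2 libraries. Among all tested genes, SYCP3 had the CPM percentile 74.3 in naïve hESCs and DAZL the percentile 71.4 in primed hESCs, and the other 8 members were at or below 42.4 in both states. The members summed to 19.8 and 19.9 CPM in the naïve libraries and to 16.97 and 18.02 CPM in the primed libraries. SYCP3 made up most of the sum in naïve hESCs and DAZL most of it in primed hESCs. The median log2 fold change of the tested members was 0.34, beside −0.08 for all tested genes. The CPM of the states did not overlap for 7 of the 8 tested members, beside 84.4% of all genes, with 4 higher in naïve (39.6% of all genes) and 3 higher in primed hESCs (44.8%).

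**Figure D1:**
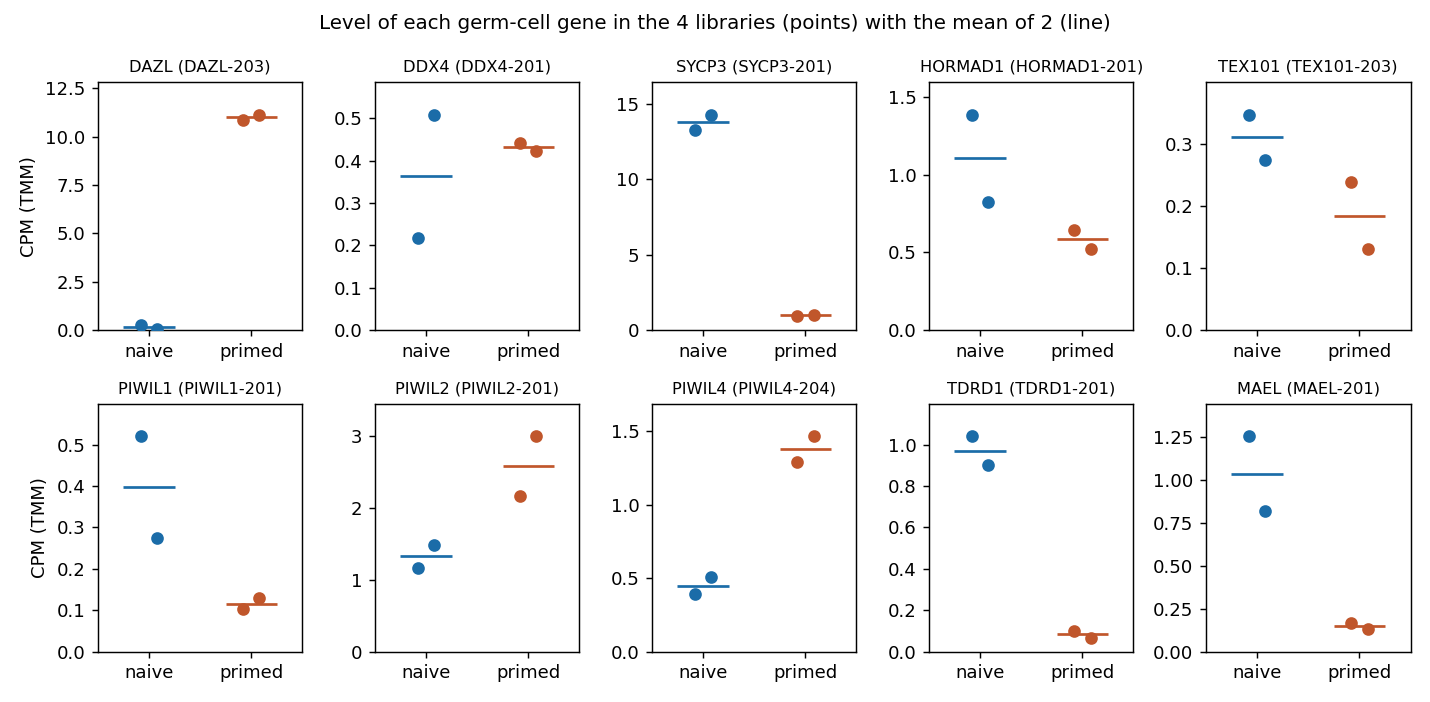
CPM (TMM-scaled, linear axes from 0, 1 axis per gene) of the 10 germ-cell genes in the 2 naïve and 2 primed libraries, with points for libraries and lines for means. SYCP3, TDRD1 and MAEL sat higher in naïve hESCs, DAZL, PIWIL2 and PIWIL4 higher in primed hESCs, and the 2 DDX4 points of the naïve state lay on either side of the primed ones.

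Of the RNA-binding regulators, DAZL, which promotes translation in early germ cells and meiosis, had the largest fold change of the set. Its most counted transcript, DAZL-203 (ENSG00000092345, chr3:16596750-16670306, minus strand), had 6 and 1 counts in naïve 1 and 2 and 320 and 342 counts in primed 1 and 2. Both primed libraries were far above both naïve ones. Scaled, this was 0.260 and 0.0392 CPM in the naïve libraries against 10.9 and 11.1 CPM in the primed ones. The log2 fold change, naïve over primed, was −6.21 ± 0.35 (edgeR, adjusted p = 8.77e-20). Here and below, ± after a fold change is an SE taken from the test statistic. It can understate the counting error where a state has few counts.

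Little of the DAZL-203 count lay over the canonical gene. DAZL-203 starts 64883 bases upstream of DAZL-202, the canonical transcript (chr3:16586792-16605423), and overlaps the long non-coding gene ENSG00000229271 on the same strand. DAZL-202 had 0 counts in both naïve libraries and 38 and 27 counts in primed 1 and 2. The gap ran the same way in every library, and against a floor of 3 counts per naïve library DAZL-202 was at least 8.77-fold higher in primed hESCs (at least 13.7-fold with library size in place of TMM). Its count was 11.9% and 7.89% of the DAZL-203 count in the primed libraries, so at least 282 and 315 alignments of DAZL-203 there lay wholly upstream of DAZL-202.

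The neighbouring gene was higher in the same libraries. ENSG00000229271, chosen after its values were seen, had 4 and 1 naïve against 369 and 364 primed counts (ENST00000693687, chr3:16647753-16697519). Of these, 1 and 0 naïve and 182 and 181 primed alignments missed its shorter transcript ENST00000426218, and so lay, a few bases at the other end aside, over chr3:16647753-16687985, which DAZL-203 enters. The deposited counts do not say which of the alignments over both spans belonged to which gene.

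DDX4, the VASA helicase of the germ line, showed no difference that passed the test. DDX4-201 (ENSG00000152670, chr5:55738017-55817146, plus strand) had 5 and 13 counts in naïve 1 and 2 and 13 counts in each primed library. The second naïve library matched the primed ones in count. The level was 0.363 ± 0.207 CPM in naïve and 0.432 ± 0.0125 CPM in primed hESCs (SD, n = 2), a log2 fold change of −0.23 ± 0.49 (edgeR, adjusted p = 0.690), and without naïve replicate 1 the sign turned (0.25, adjusted p = 0.746). Part of the DDX4-201 span is shared with SLC38A9, an amino acid transporter gene on the other strand named after its values were seen, whose SLC38A9-208 had 348 and 389 naïve and 186 and 143 primed counts. DDX4-211, an inner transcript, had 3 and 6 naïve and 11 and 9 primed counts.

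Of the meiotic chromosome proteins, SYCP3, a lateral element of the synaptonemal complex that pairs homologous chromosomes, was the most abundant member in naïve hESCs. SYCP3-201 (ENSG00000139351, chr12:101728648-101739426, minus strand) had 306 and 365 counts in naïve 1 and 2 and 28 and 31 counts in primed 1 and 2. The lowest naïve library was far above the highest primed one. The level was 13.8 ± 0.736 CPM in naïve and 0.980 ± 0.0423 CPM in primed hESCs (SD, n = 2), 14.1-fold higher in naïve hESCs with a log2 fold change of 3.81 ± 0.23 (edgeR, adjusted p = 5.2e-19).

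Most SYCP3 alignments touched the 3′ end of the gene. SYCP3-205, a transcript confined to the last 3019 bases, took 260 and 318 naïve and 18 and 20 primed counts. These were 85.0% (95% Wilson interval 80.5% to 88.5%) and 87.1% (83.3% to 90.2%) of the SYCP3 alignments in naïve 1 and 2, and 64.3% (45.8% to 79.3%) and 64.5% (46.9% to 78.9%) in primed 1 and 2, with intervals that cover counting error only. The share was higher in both naïve libraries. The remaining alignments, which missed the last 3019 bases, numbered 46 and 47 for naïve 1 and 2 and 10 and 11 for primed 1 and 2. This upstream part alone was 1.92 ± 0.107 CPM in naïve and 0.349 ± 0.0135 CPM in primed hESCs, with a log2 fold change of 2.44 (edgeR, adjusted p = 1.95e-07).

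SYCP3 shares its span with CHPT1, a gene of choline phospholipid synthesis on the other strand, named after its values were seen. CHPT1-203 (chr12:101726323-101744140) covers all of SYCP3 and had 309 and 370 naïve and 44 and 42 primed counts, of which only 3 and 5 naïve and 16 and 11 primed alignments missed SYCP3. Without strand, the alignments over SYCP3, its upstream part included, cannot be told apart from those of CHPT1-203. The longer CHPT1 transcripts reach SYCP3 only at its 3′ end. CHPT1-205, which ends before SYCP3 (chr12:101697672-101727039), had 60 and 64 naïve and 75 and 61 primed counts, so the counts over the body of CHPT1 overlapped between the states. CHPT1-201, which runs on into SYCP3, had 247 and 229 naïve and 75 and 64 primed counts. The difference between these nested spans, which is the stretch chr12:101727040-101729074 apart from a few bases at the other end, held 187 and 165 alignments of naïve hESCs against 0 and 3 of primed hESCs. At least 246 and 301 of the naïve SYCP3 alignments did not reach the body of CHPT1, which is more than all SYCP3 alignments of either primed library.

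**Figure D2:**
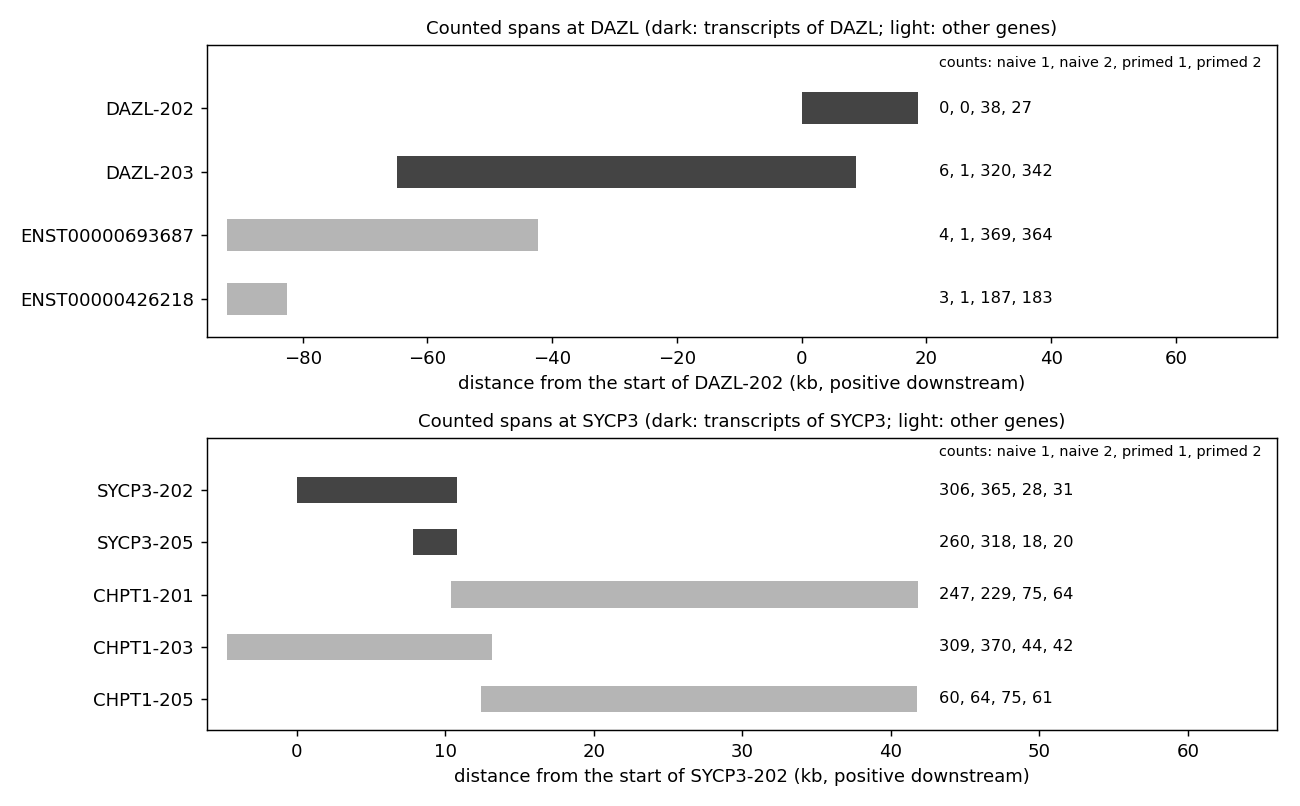
Spans counted at DAZL (top) and SYCP3 (bottom) by distance in kb from the start of the canonical transcript, with the raw counts of the 4 libraries at the right. DAZL-203 reaches from DAZL-202 (0, 0, 38 and 27 counts) into a neighbouring non-coding gene that was also counted mostly in primed hESCs, and SYCP3 lies inside CHPT1-203 and meets the end of the longer CHPT1 transcripts, whose body (CHPT1-205) was at 60 to 75 counts in every library.

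HORMAD1, which monitors the pairing of meiotic chromosomes, differed least among the members that passed. HORMAD1-201 (ENSG00000143452, chr1:150698162-150720885, minus strand) had 32 and 21 counts in naïve 1 and 2 and 19 and 16 counts in primed 1 and 2. The counts nearly met, and the scaled levels were 1.10 ± 0.399 CPM in naïve and 0.583 ± 0.0873 CPM in primed hESCs (SD, n = 2). The log2 fold change was 0.91 ± 0.38 (edgeR, adjusted p = 0.0327). The call was lost with library size in place of TMM (0.27, adjusted p = 0.535), with DESeq2 (0.97, adjusted p = 0.160), with a transcript free of overlap (0.89, adjusted p = 0.0580), without naïve replicate 1 (0.51, adjusted p = 0.381), without primed replicate 1 (1.07, adjusted p = 0.0571) and without primed replicate 2 (0.75, adjusted p = 0.172).

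TEX101, a glycoprotein on the surface of germ cells, stayed below the count minimum. TEX101-203 (ENSG00000131126, chr19:43401496-43418597, plus strand) had 8 and 7 naïve and 7 and 4 primed counts. The counts touched at 7, and with the minimum removed the log2 fold change was 0.75 (edgeR, adjusted p = 0.389).

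The PIWI proteins, which bind piRNAs and guide them to transposon transcripts, did not share a direction. PIWIL1-201 (ENSG00000125207, chr12:130337887-130372637, plus strand) had 12 and 7 naïve and 3 and 4 primed counts, below the count minimum. PIWIL1-208, confined to the first part of the gene, had 12 and 5 naïve and 0 and 1 primed counts, which left 0 and 2 naïve and 3 and 3 primed alignments for the rest of the gene. The excess in naïve hESCs thus stood in the first part of the gene. With the minimum removed, the log2 fold change of PIWIL1-201 was 1.72 (edgeR, adjusted p = 0.0263), which did not pass without primed replicate 1 (1.57, adjusted p = 0.135) or primed replicate 2 (1.89, adjusted p = 0.0969).

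PIWIL2 (ENSG00000197181, chromosome 8, plus strand), whose counted transcript overlaps no other gene, was higher in primed hESCs. PIWIL2-201 had 27 and 38 counts in naïve 1 and 2 and 64 and 92 counts in primed 1 and 2. Both primed libraries were above both naïve ones. The level was 1.33 ± 0.225 CPM in naïve and 2.59 ± 0.584 CPM in primed hESCs (SD, n = 2), a log2 fold change of −0.95 ± 0.29 (edgeR, adjusted p = 0.00336), and without primed replicate 2 it did not pass (−0.71, adjusted p = 0.0762). PIWIL2-203, a short transcript near the end of the gene, had 1 and 2 naïve and 10 and 9 primed counts.

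PIWIL4, which directs DNA methylation of transposons in fetal male germ cells, was also called higher in primed hESCs. PIWIL4-204 (ENSG00000134627, chr11:94543840-94616564, plus strand) had 9 and 13 naïve and 38 and 45 primed counts, with no overlap between the states. The level was 0.449 ± 0.0844 CPM in naïve and 1.38 ± 0.125 CPM in primed hESCs (SD, n = 2), a log2 fold change of −1.60 ± 0.38 (edgeR, adjusted p = 0.00029).

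Much of that PIWIL4 count lay over FUT4, a fucosyltransferase gene that sits wholly inside the PIWIL4-204 span. FUT4-201 had 4 and 6 naïve and 26 and 25 primed counts, 58.1% of the PIWIL4-204 count over the 4 libraries. Left outside FUT4 were 5 and 7 naïve and 12 and 20 primed alignments. These were still higher in both primed libraries, but the canonical PIWIL4-201 (chr11:94567368-94621421), which lies past FUT4, had only 3 and 1 naïve and 4 and 8 primed counts and was not tested. The antisense gene PIWIL4-AS1, named after its values were seen, had 21 and 30 naïve and 747 and 680 primed counts over a span that also crosses PIWIL4-204, and without strand its alignments cannot be told apart from those of PIWIL4 where they meet.

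TDRD1 and MAEL, which help PIWI proteins to make piRNAs and to silence transposons, were both higher in naïve hESCs. TDRD1-201 (ENSG00000095627, chr10:114179270-114232304, plus strand), a tudor-domain scaffold whose counted transcript overlaps no other gene, had 24 and 23 naïve and 3 and 2 primed counts. The naïve libraries were close to each other and well apart from the primed ones. The level was 0.970 ± 0.0981 CPM in naïve and 0.0835 ± 0.0259 CPM in primed hESCs (SD, n = 2), a log2 fold change of 3.47 ± 0.55 (edgeR, adjusted p = 4.55e-07).

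MAEL-201 (ENSG00000143194, chr1:166989089-167022210, plus strand) had 29 and 21 naïve and 5 and 4 primed counts. The states were again well separated. The level was 1.04 ± 0.307 CPM in naïve and 0.150 ± 0.0278 CPM in primed hESCs (SD, n = 2), a log2 fold change of 2.75 ± 0.49 (edgeR, adjusted p = 4.45e-06). Within it, MAEL-204, a transcript of 541 bases (chr1:167005076-167005616), had 18 and 8 naïve and 0 and 0 primed counts. The only other gene in the MAEL-201 span, a 5S ribosomal RNA pseudogene, had no count in any library.

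The tested transcripts of each member shared a direction. Of the 60 member transcripts 33 were tested, and 28 passed (84.8% beside 68.9% of all transcripts), 19 higher in naïve (32.6% of all transcripts) and 9 higher in primed hESCs (36.3%). Every tested transcript of SYCP3, HORMAD1, MAEL and TDRD1 was called higher in naïve hESCs, and every tested transcript of DAZL, PIWIL2 and PIWIL4 higher in primed hESCs, whereas none of 5 tested for DDX4 passed and none was tested for TEX101 and PIWIL1. Below the minimum directions were mixed, as in DDX4-206, with 2 and 7 naïve and 2 and 4 primed counts. Because alignments are shared between transcripts, only 40 sets of counts among the 60 were distinct, and these calls are not independent.

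The scaling between the states mattered for the smaller differences. Library size in place of TMM moved the median log2 fold change of all tested genes from −0.08 to −0.72, a shift of 0.64 towards primed hESCs, and 16.3% of genes were then called higher in naïve and 56.2% higher in primed hESCs. Under that scaling SYCP3 (3.17), TDRD1 (2.85), MAEL (2.12), DAZL (−6.84), PIWIL4 (−2.23) and PIWIL2 (−1.59) kept their direction and passed, and only HORMAD1 lost its call.

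**Figure D3:**
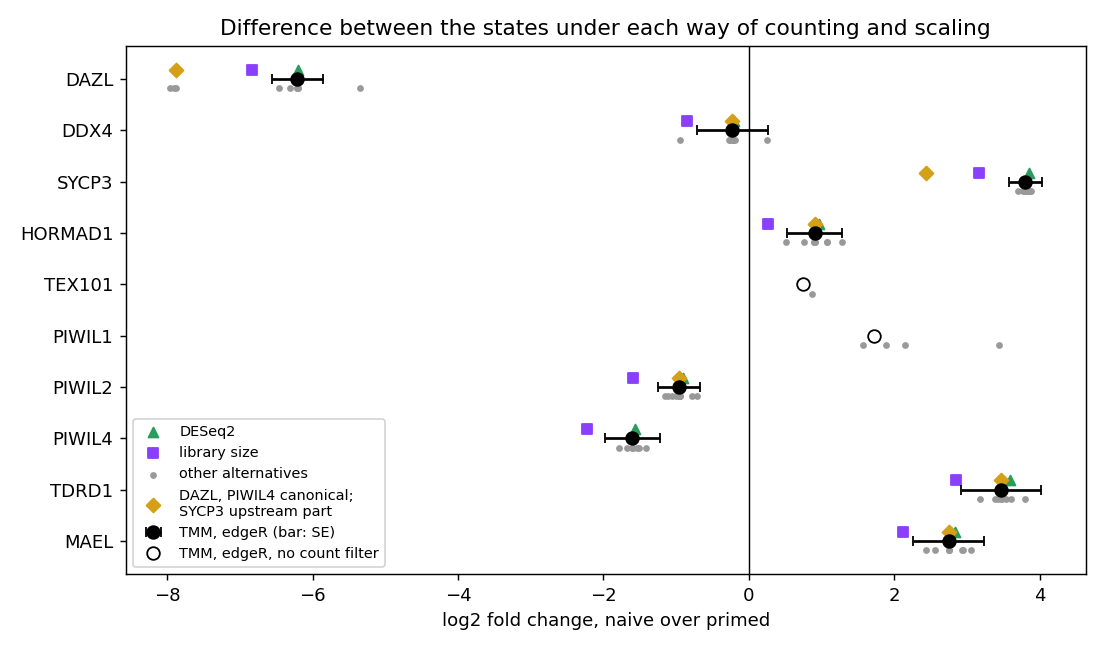
Log2 fold change of each germ-cell gene, naïve over primed, under TMM and edgeR (black, open where the count minimum was removed) and under each alternative (coloured or grey marks). Bars are the SE taken from the test statistic. SYCP3 kept a value of at least 2.44, TDRD1 and MAEL stayed above 2, DAZL stayed below −5, and the values of DDX4 lay on both sides of 0; PIWIL4 has no mark for its canonical transcript, which was below the count minimum.

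Other genes of the same pathways were compared as lists. Over all genes, 32.6% were called higher in naïve and 37.4% higher in primed hESCs, or 16.3% and 56.2% with library size. Of 21 other piRNA pathway genes 17 were tested, of which 7 were higher in naïve and 4 higher in primed hESCs (5 and 8 with library size), or 64.7% called beside 70.0% of all genes, with a median log2 fold change of 0.10. HENMT1, which methylates the ends of piRNAs, had 102 and 97 naïve and 43 and 42 primed counts (log2 fold change 1.53 ± 0.26, edgeR adjusted p = 1.48e-06). TEX15, which acts with PIWIL4 in transposon methylation, had 9 and 9 naïve and 119 and 93 primed counts (−3.24 ± 0.35, adjusted p = 5.41e-11). Like TDRD1, RNF17, another tudor protein, rose in naïve hESCs, with 61 and 46 naïve and 5 and 9 primed counts (3.22 ± 0.40, adjusted p = 2.46e-09). PLD6, a mitochondrial piRNA factor, also rose, with 20 and 26 naïve and 1 and 3 primed counts (3.74 ± 0.58, adjusted p = 3.06e-07). Its counted transcript overlaps another gene. RNF17 and PLD6 were named after their values were seen, and both fell below the mean count set for naming. Other tudor genes of the list were mixed. TDRD9 was higher in naïve hESCs (1.87, adjusted p = 0.000747), and TDRD7 was higher in primed hESCs (−0.76, adjusted p = 0.0499). TDRD5, TDRD12, TDRKH and STK31 did not pass, and TDRD6 was below the count minimum.

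Of 34 other meiotic genes 26 were tested, of which 9 were higher in naïve and 7 higher in primed hESCs (4 and 13 with library size), or 61.5% called beside 70.0% of all genes, with a median of −0.09. MEI4, a factor of meiotic DNA breaks, had 3157 and 3348 naïve and 839 and 965 primed counts (2.16 ± 0.15, adjusted p = 9.82e-17). The helicase HFM1 rose in naïve hESCs (1.18 ± 0.19, adjusted p = 7.63e-07), and its partner in crossing over SHOC1 (−1.18 ± 0.28, adjusted p = 0.00023), the break factor REC114 (−1.44 ± 0.26, adjusted p = 4.53e-06) and the recombinase DMC1 (−0.67 ± 0.23, adjusted p = 0.00994) were higher in primed hESCs, though DMC1 did not pass with DESeq2 (−0.62, adjusted p = 0.0804). The cohesin REC8 (1.03 ± 0.16, edgeR adjusted p = 4.16e-07) had 460 and 487 naïve and 299 and 274 primed counts. It overlaps IPO4 on the other strand, whose IPO4-201 had 434 and 476 naïve and 307 and 271 primed counts. Without strand, their alignments cannot be told apart where they meet. A transcript of REC8 free of overlap gave 1.62 (adjusted p = 6.38e-08), and library size gave 0.39 (adjusted p = 0.0327). HSF2BP (1.22 ± 0.27, adjusted p = 8.76e-05) holds the histone gene H2BC12L, which took 60.4% of its count. A transcript of HSF2BP free of overlap gave −1.64, the opposite sign, and with library size the call was lost (0.59, adjusted p = 0.0591).

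Of 11 other germ-cell RNA regulators 9 were tested, of which 5 were higher in primed and 1 higher in naïve hESCs (6 and 0 with library size), or 66.7% called beside 70.0% of all genes, with a median of −0.66. With library size, all genes shifted the same way, with 56.2% called higher in primed and 16.3% higher in naïve hESCs. ELAVL2 had 13 and 11 naïve and 278 and 399 primed counts (−4.49 ± 0.28, adjusted p = 2.49e-18), and LIN28A, which blocks let-7 processing, had 880 and 965 naïve and 5200 and 4627 primed counts (−2.11 ± 0.15, adjusted p = 2.31e-16). The list also holds SOHLH1 and SOHLH2, which are transcription factors of early gametes and not RNA regulators. SOHLH2 was lower in naïve hESCs (−0.66 ± 0.20, adjusted p = 0.00348) and shares its span with the readthrough gene CCDC169-SOHLH2. The 1 gene called higher in naïve hESCs, DND1 (0.96 ± 0.17, adjusted p = 5.63e-06), overlaps WDR55 and HARS1, and its call was lost with library size (0.32, adjusted p = 0.0988).

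Of 22 repressors of germ-cell genes all were tested, and 14 were higher in naïve and 2 higher in primed hESCs, but with library size the split turned to 4 and 7. The share called was 72.7%, beside 70.0% of all genes, of which 32.6% were higher in naïve hESCs. MGA, the scaffold of the E2F6 complex, had 2110 and 3604 naïve and 587 and 680 primed counts (2.47 ± 0.17, adjusted p = 6.05e-17). RYBP rose under both scalings (1.05 ± 0.17, adjusted p = 4.86e-07, and 0.42, adjusted p = 0.0392, with library size). L3MBTL2 (1.00 ± 0.18, adjusted p = 3.77e-06) holds its antisense gene, with 85.8% of its count, and lost the call with library size (0.36, adjusted p = 0.0686).

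Of the methylation factors among these repressors, DNMT3L, the cofactor of de novo methylation in germ cells, had 4540 and 3798 naïve and 4 and 2 primed counts (10.69 ± 0.29, adjusted p = 3.17e-31), and 92.0% of its count lay over the nested DNMT3L-AS1. DNMT3B, a de novo methyltransferase, was lower in naïve hESCs, with 1080 and 1222 naïve and 2438 and 2791 primed counts (−0.88 ± 0.14, adjusted p = 1.04e-06). EHMT2, a histone H3 lysine methyltransferase, was also lower (−0.68 ± 0.17, adjusted p = 0.000674), with 27.4% of its count over the nested EHMT2-AS1. DNMT1 (0.59, edgeR adjusted p = 0.000489) and UHRF1 (0.67, adjusted p = 0.000607), named after their values were seen, were higher in naïve hESCs. Both calls were lost with library size (−0.04, adjusted p = 0.827, and 0.04, adjusted p = 0.855). DNMT3A, SETDB1 and EHMT1 did not pass.

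**Figure D4:**
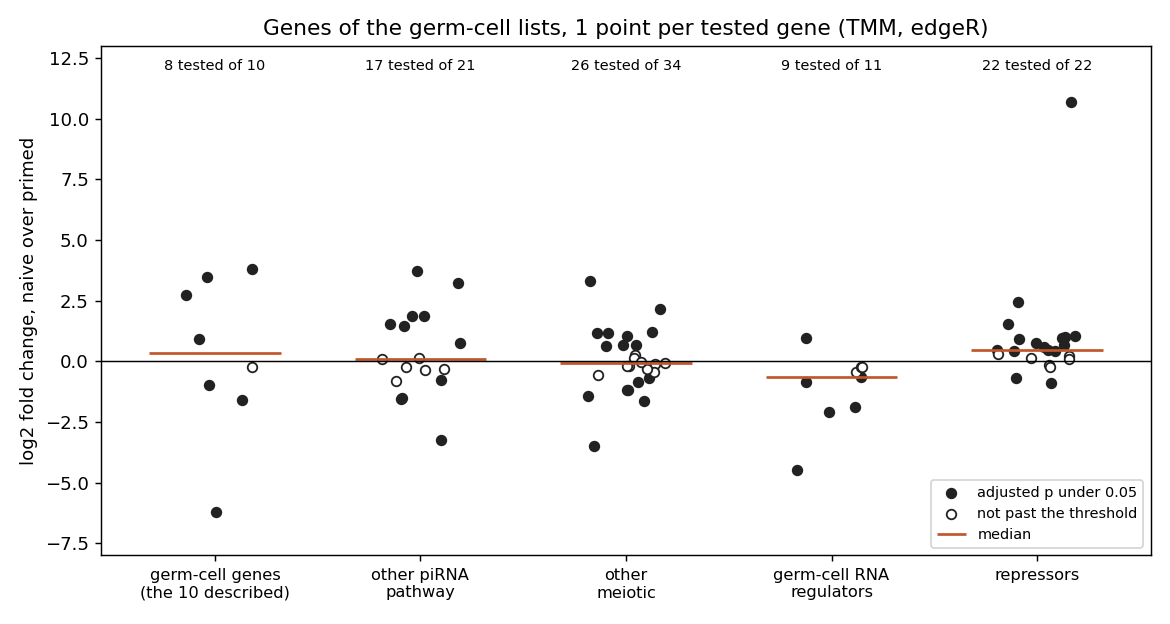
Log2 fold change (naïve over primed) of the tested genes of the germ-cell set and of the 4 related lists, with 1 point per gene, filled where the adjusted p passed 0.05, and a line at each median. The 10 genes, the piRNA genes and the meiotic genes have points well above and well below 0, and the point far above the others among the repressors is DNMT3L (10.69).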

How the data were processed

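Nanopore cDNA libraries of total RNA from naïve and primed H1 cells (2 each) were aligned by the authors with minimap2 to GRCh38 and counted with featureCounts 2.0.0 on Ensembl release 105 transcripts. The deposited values are raw counts per transcript span, introns included, without use of strand, with an alignment counted for each transcript and each place it matched, and without molecular identifiers. Single-exon and nested genes therefore add to the count of the gene around them.

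Transcripts were matched by identifier to GENCODE 44 (242542 of 244825; the rest held 1.0% of counts), and 97.9% had the same coordinates there. The members and lists were chosen with earlier results of these data known. Each gene took its transcript with the largest mean count. Genes reaching 10 counts in 2 or more libraries went into a test with edgeR 4.0.16 (R 4.3.3; TMM, quasi-likelihood test, Benjamini-Hochberg over all genes, adjusted p under 0.05). Fold changes are naïve over primed. The SE of a fold change is its absolute value divided by the square root of the F statistic of its edgeR test. It is thus not a separate estimate of error. Alternatives were DESeq2 1.42.0, library size, other count minimums, other transcripts per gene, a replicate block and each library left out. Counting DAZL and PIWIL4 by the canonical transcript and SYCP3 by its upstream part was chosen after seeing the data. Differences of nested spans count alignments in the outer part only.

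Named were all 10 members, genes nested in a taken span with at least 10% of its count, and per list up to 4 genes in each direction with the largest fold change among those called with a mean count of at least 50 and no overlap between the states. Chi-square per degree of freedom between libraries of a state was 13.2 in naïve and 7.82 in primed hESCs, so libraries of a state were not merged; alignments counted for several transcripts or places raise this value. Scripts were tested on simulated data. RefSeq promoter entries were matched by symbol.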

Additional observations from a re-analysis of the deposited data

How the results depend on the processing

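Of the member values under an alternative, 93 kept their direction and side of the threshold, 11 fell short of it and 1, DDX4 without naïve replicate 1, changed sign (its log2 fold change ran from −0.95 to 0.25 with 1 library left out). Members called fell from 7 to 3 at a minimum of 50 counts and to 3 with a transcript free of overlap, where 3 and 4 members were tested and HORMAD1 lost its call in the latter. Without overlap, fewer genes could be tested. Calls were then 9361 of 13431 tested over all genes, 7 of 11 in the piRNA list and 2 of 2 in the RNA regulators. At 50 counts they were 3 of 4 tested in the piRNA list and 10 of 10 tested member transcripts. With a log2 fold change beyond 1, 3 RNA regulators and 5 repressors passed. Leaving out 1 library gave 5 to 8 members, 17538 to 17993 genes, 8 to 11 piRNA genes, 12 to 14 meiotic genes, 4 to 6 RNA regulators, 13 to 16 repressors and 19 to 38 member transcripts, the lone library being assumed to vary like the other state. With library size, 4511 genes were higher in naïve and 15524 in primed hESCs, against 9007 and 10327 with TMM.

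Libraries with the same replicate number shared no more than the number (correlation of deviations 0.04), so the numbers do not pair them. A replicate block called 7 members, 25 member transcripts, 11 piRNA genes, 15 meiotic genes, 6 RNA regulators, 16 repressors and 19688 genes. Counts under 10 in 3 or more libraries left TEX101 and PIWIL1 without a test, and the canonical PIWIL4 transcript was too scarce at this depth for a difference to be detected.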
